A study of Mus musculus with 2 samples.

Results

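Transcript levels of 8 DNA repair genes tied to instability of CAG repeats were examined in a pair of mouse striatal cell lines, with expanded and with normal huntingtin. The genes were taken by name, and all 8 (Msh3, Msh6, Mlh3, Pms1, Pms2, Exo1, Fan1 and Ogg1) were found among the 23176 genes of the authors' deposited table. The common subunits with which these MutS and MutL proteins dimerise are not analysed here. The STHdhQ111 line carries the genotype HdhQ111/Q111 and is compared with the STHdhQ7 line, which carries HdhQ7/Q7. Both come from striatal tissue of mouse embryos at day 14, are labelled as strain 129SvEv/CD1 and were used at fewer than 15 passages. Both were grown at 33 °C and spent the last 2 days at 39 °C, a shift meant to halt division, and neither received a further agent. Whether division had halted was not measured here. The STHdh lines are known to be immortalised with a temperature-sensitive viral large T antigen, and each genotype is represented by 1 line, so genotype and line history cannot be told apart. Polyadenylated RNA was sequenced, and the title of each sample names 3 replicates that the table combines into 1 value per line. Levels are in FPKM (read fragments scaled to the length of the transcript and to the size of the library), a unit that allows levels of different genes to be compared. No spread between replicates, total count or depth can be given. Of the 9 striatal and neuronal markers in the table, 8 were under 0.5 FPKM in both lines. The exception was the neuronal tubulin Tubb3, at 3.62 FPKM in STHdhQ111 and 2.42 FPKM in STHdhQ7. The defining markers of mature striatal neurons were thus at or near 0, while the mesenchymal collagen Col1a1 stood at 1487 FPKM in STHdhQ111 and 452 FPKM in STHdhQ7. The neural progenitor filament gene Nes stood at 0.999 FPKM in STHdhQ111 and 35.99 FPKM in STHdhQ7, and 3 of the 4 tested progenitor markers were called lower by the rule given with the results. The other, Vim, was not called, at 2483 FPKM in STHdhQ111 and 3303 FPKM in STHdhQ7. The summed level of the 8 mesenchymal markers was 2948 FPKM in STHdhQ111 and 1965 FPKM in STHdhQ7. Of the 7 tested, 2 were called higher, the collagens Col1a1 and Col1a2, and 1 lower. The lower one, S100a4, stood at 338 FPKM in STHdhQ111 and 944 FPKM in STHdhQ7. Over all tested genes, 7.17% were called lower and 6.35% higher. Thy1 was untested, at 0 FPKM in STHdhQ111 and 0.099 FPKM in STHdhQ7. The part of these marker differences in the results was not tested.

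Mismatch repair corrects errors of DNA replication. A MutS dimer recognises the mispaired or looped-out bases, a MutL dimer nicks the strand, an exonuclease removes it and a polymerase and a ligase fill the gap. At long CAG repeats the same proteins act on slipped loops and can add repeat units, so that the tract lengthens in somatic cells over time, and variants near several of these genes are associated with age at onset of Huntington's disease in humans. The substrate in question is the glutamine-coding tract of huntingtin (Htt), shown here to place the repeat that these enzymes act on. In the reference mouse transcript (GENCODE M21, GRCm38, chromosome 5, plus strand) the tract has 7 glutamine codons beginning at codon 18. Of these 6 are CAG and 1 is CAA, with the longest uninterrupted CAG run 4 codons long. In the sequence below the capitals mark the tract, with 30 bases on either side.
Htt glutamine tract: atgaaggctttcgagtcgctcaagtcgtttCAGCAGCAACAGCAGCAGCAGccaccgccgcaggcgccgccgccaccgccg
The allele of the STHdhQ111 line is an expanded knock-in tract, and its sequence was not read here.

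All 8 genes had a test in the authors' table. The threshold used here is an authors' q-value (a p-value adjusted for the number of genes tested) of 0.05 or less, and genes that pass it are referred to as called. Exo1 was called lower, none of the 8 was called higher and 7 were not called. Of all 12740 tested genes, 13.5% were called, 7.17% lower and 6.35% higher, so about the same share of the table was called as the 1 of 8 seen here. Listed levels were lower in STHdhQ111 for 7 of the 8 genes, and Fan1 was the exception. Over all tested genes 54.5% had a ratio below 0. On the log2(FPKM + 0.5) scale the difference, STHdhQ111 minus STHdhQ7, had a median of -0.46 for the 8 genes and -0.05 for all tested genes.

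**Figure D1:**
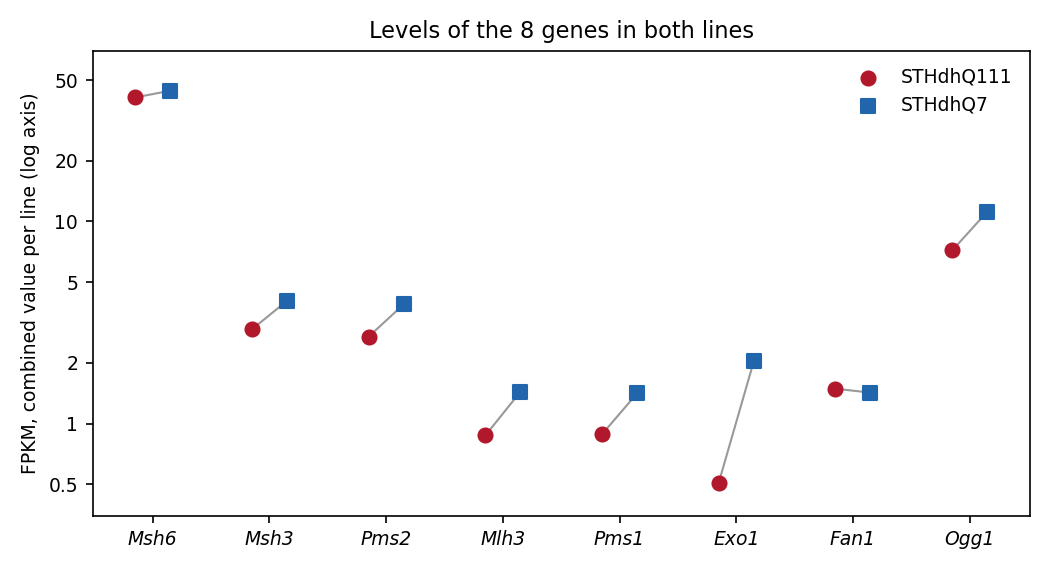
FPKM of each of the 8 genes on a log axis, 1 combined value per line, with STHdhQ111 as red circles and STHdhQ7 as blue squares joined by a line. Msh6 stands above the other 7 genes in both lines, and Exo1 has the steepest line, at 0.510 FPKM in STHdhQ111 and 2.03 FPKM in STHdhQ7.

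The levels of the 8 genes covered a wide range in both lines. They lay between 0.510 and 41.1 FPKM in STHdhQ111 and between 1.41 and 44.4 FPKM in STHdhQ7. In STHdhQ111 the order from high to low was Msh6, Ogg1, Msh3, Pms2, Fan1, Pms1, Mlh3 and Exo1. In STHdhQ7 the order was Msh6, Ogg1, Msh3, Pms2, Exo1, Mlh3, Fan1 and Pms1. The first 4 places were thus held by the same genes in both lines. In STHdhQ7 the last 3 genes lay close together, between 1.41 and 1.44 FPKM, and without replicate values their order cannot be tested. Exo1, Mlh3 and Pms1 were under 1 FPKM in STHdhQ111, and none of the 8 was under 1 FPKM in STHdhQ7. In bulk RNA, fewer cells that express a gene and less RNA per cell cannot be told apart.

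The recognition subunits differed in level from each other more than either differed between the lines. Msh6 encodes the subunit of MutSα, which recognises base mismatches and short loops, and Msh3 that of MutSβ, which recognises longer loops and is required for CAG expansion in mouse models. Msh6 lies in a locus that it shares with Fbxo11 (chromosome 17, 88374390 to 88464625, mm9). It was listed at 41.1 FPKM in STHdhQ111 and 44.4 FPKM in STHdhQ7. Its level exceeded that of 84.6% of tested genes in STHdhQ111 and 85.7% in STHdhQ7. The authors' deposited table gives Msh6 a log2 fold change of -0.11, and the ratio of that change to the test statistic implies a standard error of 0.42 (the authors' q = 0.979). The 95% interval from that error runs from 1.91-fold lower to 1.64-fold higher in STHdhQ111. Msh6 was therefore abundant in both lines, and a change of more than 2-fold in either direction lies outside the interval. Such intervals, here and for the other genes, rest on a spread that may be technical, with 1 line per genotype. Msh3 (chromosome 13, 92981836 to 93159008) was listed at 2.93 FPKM in STHdhQ111 and 4.05 FPKM in STHdhQ7. For Msh3 the authors' deposited table has a log2 fold change of -0.47, with 0.64 as its implied standard error and a q of 0.868. The interval of Msh3 is wider than that of Msh6, from 3.29-fold lower to 1.72-fold higher. The level of Msh6 was 14.1 times that of Msh3 in STHdhQ111 and 11.0 times in STHdhQ7.

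E2F factors are known to drive genes of the G1 to S transition. Of the 7 member genes with a RefSeq promoter entry, only Msh3 and Msh6 held an E2F word, and the window of Msh6, the most abundant of the 8 genes, is shown as the example. Windows run from 250 bases before to 50 bases after the RefSeq start (GRCm38.p6), and capitals mark the E2F words TTTCCCGC, TTTGGCGC, TTTCGCGC or TTTGCCGC and the SP1 word GGGCGG, on either strand. Msh6 lies on the plus strand (chr17:87974800-87975099).
Msh6 promoter: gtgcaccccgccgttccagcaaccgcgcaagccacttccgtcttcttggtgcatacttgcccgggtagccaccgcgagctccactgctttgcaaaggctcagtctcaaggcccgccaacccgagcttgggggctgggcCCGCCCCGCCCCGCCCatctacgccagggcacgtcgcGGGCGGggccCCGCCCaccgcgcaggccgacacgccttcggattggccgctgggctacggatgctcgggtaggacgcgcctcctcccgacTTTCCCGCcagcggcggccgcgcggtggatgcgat
The Msh6 window holds an E2F word from 15 to 22 bases after the start and 5 SP1 words, some of them overlapping. Among 27025 genes with an entry, 704 (2.61%) held an E2F word and 38.2% an SP1 word in a window of the same length. Of the S phase and proliferation markers listed for this work, 6 of 12 with an entry held an E2F word. The NFY word CCAAT was found on either strand in 5 of the 7 member genes, against 41.1% of all genes. The TATA word TATAAA was found in none of the 7, against 15.7% of all genes on either strand and 9.77% on the sense strand. Exo1 has no entry in the promoter table. A match is a string of letters, and binding was not measured.

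**Figure D2:**
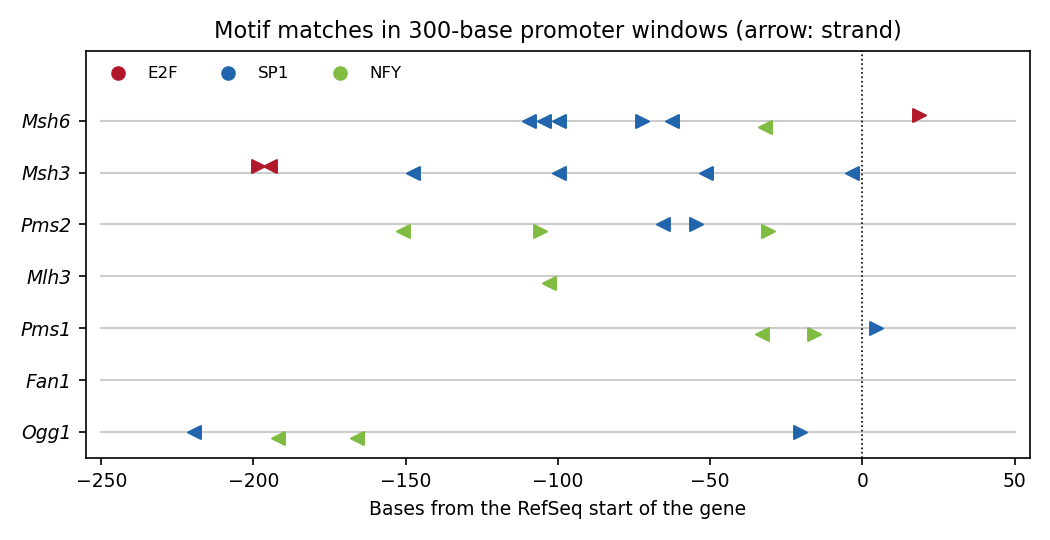
Positions of E2F, SP1 and NFY words (colour) in the promoter windows of the 7 genes with an entry, in bases from the RefSeq start, with the arrow giving the strand. The E2F words lie in Msh3 and Msh6, and Fan1 has no match to any of the 4 motifs.

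Some member genes share their start region with a gene on the opposite strand. The divergent neighbour of Pms1 is Ormdl1, a regulator of sphingolipid synthesis, whose start lies 64 bases away. It was listed at 3.28 FPKM in STHdhQ111 and 5.23 FPKM in STHdhQ7 and was not called (the authors' q = 0.653). The divergent neighbour of Pms2 is Aimp2, a scaffold of the aminoacyl-tRNA synthetase complex, whose start lies 62 bases away. It was listed at 35.1 FPKM in STHdhQ111 and 35.8 FPKM in STHdhQ7 and was not called (the authors' q = 0.996). Both pairs were found as starts within 1000 bases of each other on opposite strands.

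The MutL genes were low in both lines, and none of them was called. Pms2 encodes the endonuclease subunit of MutLα, the main MutL dimer of replication repair. Pms2 (chromosome 5, 144670870 to 144692625) was listed at 2.69 FPKM in STHdhQ111 and 3.89 FPKM in STHdhQ7. The authors' deposited table lists its log2 fold change as -0.53 (implied standard error 0.49, q = 0.716). Mlh3 encodes the endonuclease subunit of MutLγ, known for crossing over in meiosis and required for CAG expansion in Huntington's disease mice. Mlh3 (chromosome 12, 86575470 to 86611514) was listed at 0.873 FPKM in STHdhQ111 and 1.44 FPKM in STHdhQ7. In the authors' deposited table its log2 fold change is -0.72 (implied standard error 0.57, q = 0.611). Pms1 encodes the subunit of MutLβ, which lacks the endonuclease site, and its human gene is among those associated with onset. Pms1 (chromosome 1, 53246032 to 53353840) was listed at 0.886 FPKM in STHdhQ111 and 1.41 FPKM in STHdhQ7. Pms1 has a log2 fold change of -0.67 in the authors' deposited table (implied standard error 0.65, q = 0.737). The values of Pms2, Mlh3 and Pms1 were lower in STHdhQ111 by amounts within about 1.3 standard errors. The level of Pms2 was 3.08 times that of Mlh3 in STHdhQ111 and 2.71 times in STHdhQ7, and it was 3.04 times that of Pms1 in STHdhQ111 and 2.76 times in STHdhQ7. The 3 intervals reach 2.83-fold lower for Pms2, 3.55-fold lower for Mlh3 and 3.85-fold lower for Pms1, so falls as large as these bounds lie within the intervals.

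Exo1 was the only gene of the set called lower in STHdhQ111. It encodes the exonuclease that removes the nicked strand after recognition, and it also resects DNA ends in recombination. Exo1 (chromosome 1, 177810909 to 177841527) was listed at 0.510 FPKM in STHdhQ111 and 2.03 FPKM in STHdhQ7, 3.98-fold lower. Its log2 fold change is -1.99 in the authors' deposited table (implied standard error 0.62, q = 0.0122). The 95% interval runs from 1.72-fold to 9.20-fold lower, so the size of the fall is loosely fixed. Its level exceeded that of 5.64% of tested genes in STHdhQ111 and 18.6% in STHdhQ7, and 5.39% of tested genes with a fold change had one as low or lower. On the log2 scale of (FPKM + 0.5) the ratio was -1.33, since that scale understates changes of low genes. The call does not hold at a stricter threshold of 0.01, at which 4.99% of tested genes are called lower. Under the Benjamini-Yekutieli adjustment of the authors' Cuffdiff p-values, 4.4% of tested genes are called lower and Exo1 is not, at an adjusted value of 0.123. It holds at a threshold of 0.1 (8.72% of tested genes called lower), and with adjustment over genes averaging at least 1 FPKM across the lines (6.35% called lower). The change of Exo1 was not tested against those of the other 7 genes.

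**Figure D3:**
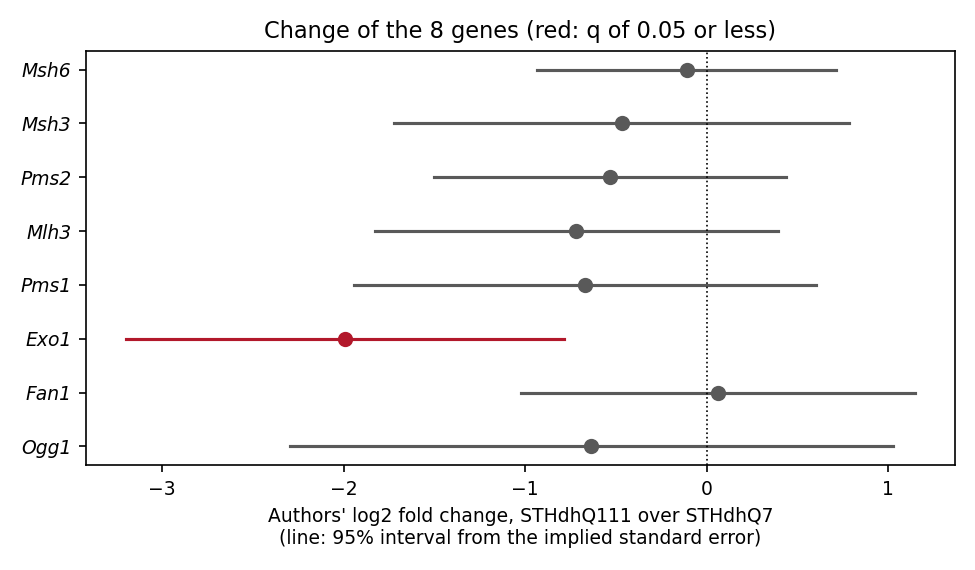
The authors' log2 fold change of each gene, STHdhQ111 over STHdhQ7 (points), with the 95% interval from the implied standard error (lines) and the called gene in red. The interval of Exo1, from -3.20 to -0.79, lies below 0, and those of the other 7 genes span 0.

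Fan1 and Ogg1 act outside the MutS and MutL complexes. FAN1 is a nuclease of crosslink repair that restrains CAG expansion, and variants of its human gene are among the strongest associated with onset. Fan1 (chromosome 7, 71491644 to 71518981) was listed at 1.49 FPKM in STHdhQ111 and 1.42 FPKM in STHdhQ7. Fan1 has a log2 fold change of 0.06 in the authors' deposited table (implied standard error 0.55, q = 0.994). Its interval runs from 2.03-fold lower to 2.22-fold higher, so the near-equal values leave changes of about that size possible. OGG1 is the glycosylase that removes oxidised guanine in base excision repair, and its loss lowers expansion in Huntington's disease mice. Ogg1 lies in a shared locus (chromosome 6, 113276970 to 113293916). It was listed at 7.19 FPKM in STHdhQ111 and 11.2 FPKM in STHdhQ7. Ogg1 has a log2 fold change of -0.64 in the authors' deposited table (q = 0.863), and its implied standard error of 0.85 is the largest of the 8. That error exceeds those of 89.3% of tested genes, and the interval runs from 4.91-fold lower to 2.04-fold higher. Ogg1 shares its locus with Camk1, a calmodulin-dependent kinase gene on the other strand, and Msh6 shares its locus with Fbxo11, which encodes a ubiquitin ligase subunit. Camk1 was listed at 29.9 FPKM in STHdhQ111 and 29.1 FPKM in STHdhQ7, and Fbxo11 at 11.2 FPKM in STHdhQ111 and 12.2 FPKM in STHdhQ7. Neither was called. Of the 36-base words of coding Ogg1 transcripts, 1.98% occur in Camk1 transcripts. The labels do not say that strand was kept, so reads of that overlap cannot be told apart. The share of words that occur in no other gene's transcripts on either strand was lowest for Msh6 (91.6%) and Pms2 (93.4%) and was 100% for Fan1. Exact matches to other genes' transcripts thus made up a small part of each gene's words. Copies that differ within a word or lie outside the annotated transcripts were not counted.

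The list of other mismatch repair genes, most of them for later steps shared with DNA replication, held 4 called genes, all lower in STHdhQ111. Meiotic MutS genes and chromatin genes are also on it. This list names 18 genes, of which 16 were tested, and 12 of those were not called. Of all tested genes, 7.17% were called lower. Its median log2 ratio of (FPKM + 0.5) was -0.70, beside -0.05 for all tested genes. Pcna, the sliding clamp that binds MSH3, MSH6 and EXO1, fell to 95.9 FPKM in STHdhQ111, against 292 FPKM in STHdhQ7 (the authors' q = 0.000448). Lig1, the ligase that seals the repaired strand and whose human gene is also associated with onset, fell to 14.6 FPKM in STHdhQ111, against 41.6 FPKM in STHdhQ7 (the authors' q = 0.00438). Rpa2, a subunit of the single-strand binding complex RPA, fell to 7.69 FPKM in STHdhQ111, against 26.7 FPKM in STHdhQ7. Rfc5, a subunit of the clamp loader, fell to 8.27 FPKM in STHdhQ111, against 20.6 FPKM in STHdhQ7. The large RPA subunit Rpa1 was not called and was listed at 94.3 FPKM in STHdhQ111 and 85.9 FPKM in STHdhQ7. Hmgb1, a chromatin protein, was not called either, at 65.4 FPKM in STHdhQ111 and 65.0 FPKM in STHdhQ7. The meiotic MutS genes Msh4 and Msh5 were untested and under 0.5 FPKM in both lines.

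Base excision repair, the pathway that OGG1 begins, held called genes in both directions. Of 19 tested genes 4 were called lower, 1 was called higher and 14 were not called, with a median log2 ratio of -0.36. Over all tested genes, 7.17% were called lower and 6.35% higher. Ung, the uracil glycosylase, fell to 1.52 FPKM in STHdhQ111, against 7.12 FPKM in STHdhQ7 (the authors' q = 0.0029). Neil3, a glycosylase for oxidised bases, fell to 0.468 FPKM in STHdhQ111, against 2.11 FPKM in STHdhQ7. The flap nuclease Fen1 fell to 15.97 FPKM in STHdhQ111, against 40.03 FPKM in STHdhQ7, and the scaffold Xrcc1 fell to 18.6 FPKM in STHdhQ111, against 40.998 FPKM in STHdhQ7. Mpg, the glycosylase for alkylated bases, rose to 22.1 FPKM in STHdhQ111, against 0.201 FPKM in STHdhQ7 (the authors' q = 0.0158). Mpg has a log2 fold change of 6.78 in the authors' deposited table (implied standard error 2.16). The abasic site nuclease Apex1 was listed at 28.0 FPKM in STHdhQ111 and 20.6 FPKM in STHdhQ7, and the repair polymerase Polb at 19.7 FPKM in STHdhQ111 and 17.5 FPKM in STHdhQ7. Neither was called.

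The other repair lists held fewer calls, and their counts stand beside 7.17% called lower and 6.35% called higher over all tested genes. In the Fanconi anaemia pathway, whose FANCD2 protein recruits FAN1, 2 of 17 tested genes were called lower, none higher and 15 were not called (median log2 ratio -0.54). Fancd2 fell to 0.729 FPKM in STHdhQ111, against 2.45 FPKM in STHdhQ7, and Ube2t, its ubiquitin-conjugating enzyme, fell to 3.43 FPKM in STHdhQ111, against 11.9 FPKM in STHdhQ7. None of the 19 tested genes of nucleotide excision repair was called by the authors' Cuffdiff test, with 1 at an unadjusted p under 0.05, and their median log2 ratio was 0.03. None of the 16 tested genes of double-strand break repair was called by it either, with 2 at an unadjusted p under 0.05 and a median of -0.29. Neither list had a call under the Benjamini-Yekutieli adjustment, which is stricter and so could not add one. With the threshold at 0.1, nucleotide excision repair had 1 gene called lower and double-strand break repair had 2, beside 8.72% of all tested genes. Among 9 further genes reported to modify CAG expansion or onset, 2 were called lower, Lig1 and Fen1, and 7 were not called (median -0.20). Across all 6 lists, which overlap, 90 distinct genes were tested. Of these 10 were called lower, 1 was called higher and 79 were not called. The share called in either direction was close to the 13.5% of all tested genes.

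**Figure D4:**
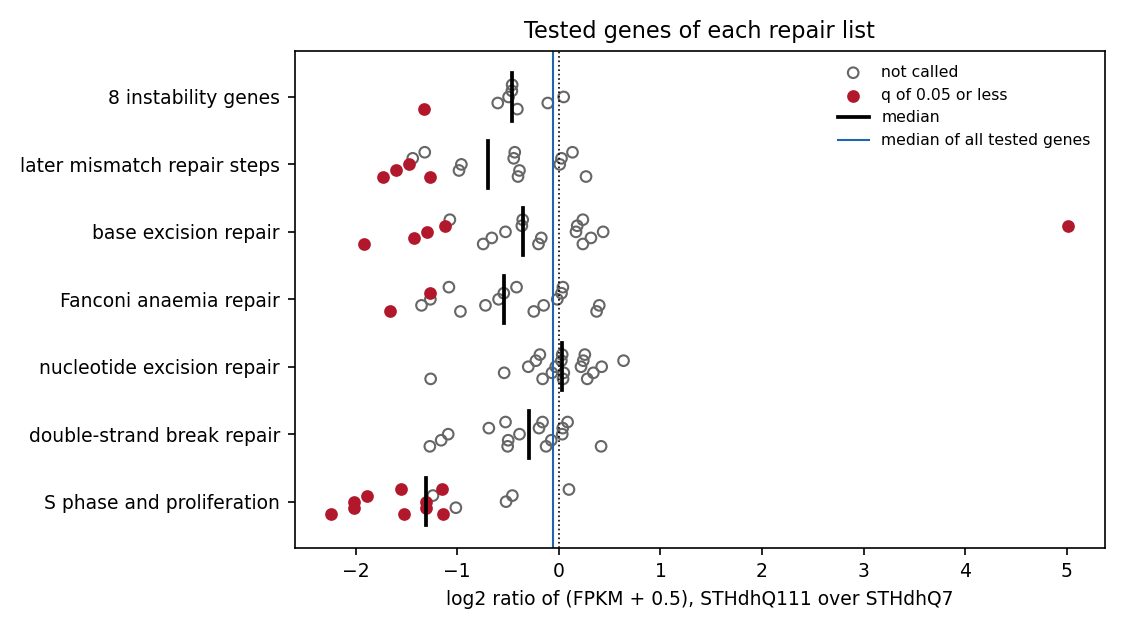
Log2 ratio of (FPKM + 0.5), STHdhQ111 over STHdhQ7, for each tested gene of the lists (points, filled red where called), with the list's median as a black bar and the median of all tested genes as a blue line. Of the 7 lists plotted, the S phase markers have the lowest median, -1.30, and the 8 instability genes lie at -0.46.

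Genes of S phase and proliferation were also lower. Of 15 tested markers 10 were called lower in STHdhQ111, none was called higher and 5 were not called, beside 7.17% of all tested genes called lower. The summed level of the 15 was 292 FPKM in STHdhQ111 and 771 FPKM in STHdhQ7, and no marker was at 0. The replication licensing factor Cdc6 fell to 1.33 FPKM in STHdhQ111, against 6.88 FPKM in STHdhQ7, a fold of 5.17. The topoisomerase Top2a fell to 10.3 FPKM in STHdhQ111, against 30.6 FPKM in STHdhQ7, and the proliferation marker Mki67 fell to 1.45 FPKM in STHdhQ111, against 3.82 FPKM in STHdhQ7. The ribonucleotide reductase subunit Rrm2 was not called, at 36.5 FPKM in STHdhQ111 and 34.1 FPKM in STHdhQ7. The part of the lower S phase markers in the level of Exo1, Pcna, Lig1 and the other called repair genes was not tested. Distance to Exo1 was taken in the plane of log2(FPKM + 0.5) of both lines, over tested protein-coding genes without provisional symbols. The 3 nearest to Exo1 were Lingo1 (distance 0.06), Neil3 (distance 0.07) and Aspm (distance 0.08). This likeness rests on 2 values per gene.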

How the data were processed

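Polyadenylated RNA of both lines was turned into cDNA with random primers and sequenced, per the labels' protocols. TopHat 1.4.0, Bowtie 0.12.7, Cufflinks 2.0.2, Cuffdiff and the mm9 build are named in the submitters' processing notes. No options or annotation are given in sources used here. Per the file headers, the table holds 1 FPKM per line that the authors combined from replicates, and their test statistic (a score), log2 fold change, p-value and q-value. The statistic's sign is opposite to that of the fold change in all 12647 tested genes that have both. The deposited p-value equalled the normal tail of the statistic to within 2.7e-06, so the fold change divided by the statistic was taken as the implied standard error. No label calls the replicates separate cultures, and the spread behind these p-values may be technical. Only genes with status OK count as tested, and 93 of these have 1 line listed at 0 and no fold change. The members and gene lists were chosen with earlier results of these data known. Besides the members, each list's called genes and its 2 most abundant uncalled tested genes could be named, with divergent neighbours, the genes nearest to Exo1 and, chosen after their values were seen, Camk1, Fbxo11, Nprl3, Msh4, Msh5 and the genes named in the closing section. S phase genes are given as examples. Locus starts were raised by 1. No new test was run, and steps were tested on simulated data. The protein sequences foreseen were not used here, and 1 item tied to the list is not reported here. Promoter sequences are RefSeq's, matched by symbol. Python 3.11.15, numpy 2.4.6, pandas 2.3.3, scipy 1.17.1 and matplotlib 3.10.9 were used.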

Additional observations from a re-analysis of the deposited data

How the results depend on the processing

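No paired analysis was possible because the table holds 1 combined value per line, and for the same reason no replicate could be left out. At a q of 0.01 or less, the genes called lower numbered 0 of the 8 instability genes, 2 in base excision repair (with 0 called higher) and 0 in the Fanconi anaemia list. Under the Benjamini-Yekutieli adjustment they numbered 0 of the 8 (Exo1 at an adjusted value of 0.123), 1 in base excision repair (with 0 called higher), 0 in the Fanconi anaemia list, 1 among the further modifiers and 6 of the S phase markers. At a q of 0.1 or less, 1 gene of nucleotide excision repair and 2 of double-strand break repair were called lower. These settings differ from the main one only in strictness. Of all tested genes, 4.99% were called lower at 0.01, 4.4% under the Benjamini-Yekutieli adjustment and 8.72% at 0.1. With only 250 bases before the start, 1 member gene held an E2F word, since the word of Msh6 lies after the start. The log2 ratio of Exo1 ran from -1.81 with a pseudocount of 0.1 to -1.01 with a pseudocount of 1. The median of the 8 genes ran from -0.57 with a pseudocount of 0.1 to -0.37 with a pseudocount of 1, and the other scalings, filter and summary gave values between these. The expressed genes had a median of -0.05, and recentring by it changed no direction among the 8. The other 7 genes stayed uncalled in every setting (q from 0.611 to 1). The depth is unknown, so the read counts behind the genes near 1 FPKM cannot be given.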

Other observations

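Some listed genes had a large listed difference without a call. In 8 tested genes of the lists the level in STHdhQ111 was lower by more than 1 on the log2 scale while the authors' q was above 0.5. Their log2 fold changes in the authors' deposited table lay between -1.76 and -1.24, and the standard errors it implies for them between 0.95 and 6.87, against a median of 0.44 over all tested genes. Eme1, a subunit of a structure-specific nuclease, was listed at 1.12 FPKM in STHdhQ111 and 3.38 FPKM in STHdhQ7, with an implied standard error of 6.87. Pold2, a subunit of the replicative polymerase delta, was listed at 25.98 FPKM in STHdhQ111 and 71.3 FPKM in STHdhQ7, with an implied standard error of 3.31. Rfc4, a clamp loader subunit, was listed at 6.45 FPKM in STHdhQ111 and 16.9 FPKM in STHdhQ7, with an implied standard error of 2.76. The remaining 5 were Fanca, Fanci, Rad54l, Gins2 and Ccne2. All 8 share their locus with another gene, and the part of this sharing in their standard errors was not tested. The lack of a call for these 8 genes therefore does not show that their levels were alike.

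Mpg shares its locus in the table (chromosome 11, 32126505 to 32167614, mm9) with Nprl3, a regulator of mTORC1 signalling. Nprl3 was listed at 12.6 FPKM in STHdhQ111 and 12.4 FPKM in STHdhQ7 and was not called (the authors' q = 0.995), whereas Mpg was listed at 22.1 FPKM in STHdhQ111 and 0.201 FPKM in STHdhQ7.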
